A study of Homo sapiens with 40 samples.

Results

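Keratins are the intermediate filament proteins of epithelial cells, and 8 of them that are used to tell luminal from basal breast epithelium (KRT5, KRT7, KRT8, KRT14, KRT15, KRT17, KRT18 and KRT19) were followed in the human breast cancer line MDA-MB-231 treated with zoledronate or fluvastatin. All probe sets whose platform annotation names a member were taken. This gave 9 probe sets for 7 of the 8 genes, out of 20172 symbols on the array, 21214 probe sets that carry a symbol and 33297 in the whole table. KRT5, KRT7, KRT8, KRT14, KRT15 and KRT19 have 1 probe set each and KRT18 has 3, of which the one numbered 7969574 is also annotated with the microRNA gene MIR622. KRT17 was not analysed here.

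MDA-MB-231 is an established line from a breast carcinoma that lacks hormone receptors and has a mesenchymal appearance. RNA of 40 cultures in 10 groups of 4 independent replicates was hybridised to 1 array each. Lot I held mock-treated controls, zoledronate at 30 µM and fluvastatin at 2 µM, each at 12 h and at 24 h, so that both agents share their control arrays at each time. Lot II held controls and zoledronate at 30 µM at 48 h, and controls and zoledronate at 100 µM at 24 h. Mock-treated cells received the solvent alone. All groups are the same cell line in medium with serum, and nothing beyond agent, dose, time and lot separates them in the labels. Zoledronate is a bisphosphonate that blocks farnesyl diphosphate synthase, and fluvastatin is a statin that blocks HMG-CoA reductase, an earlier step of the same mevalonate pathway. The values are log2 signals, so a difference of 1 is a factor of 2. The comparisons ask how each agent changes the keratin transcripts early, after longer exposure and at a higher dose.

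Keratin filaments form from pairs of a type I (acidic) and a type II (basic) chain. KRT8 with KRT18 is the pair of simple epithelia, joined in luminal breast cells by KRT7 (type II) and KRT19 (type I, the smallest keratin, with hardly any tail domain). KRT5 (type II) with KRT14 (type I) is the pair of basal cells, and KRT15 and KRT17 are further type I chains of basal and stem-like layers. In the RefSeq gene table KRT8 and KRT18 are direct neighbours although they are of opposite type, and KRT15 and KRT19 are direct neighbours in the type I cluster.

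RefSeq promoter sequence (GRCh38.p14, minus strand, 250 bases before to 50 after the start) was at hand for KRT8, a luminal keratin whose level rose, and for KRT5, a basal keratin that passed in no treated comparison. The KRT8 window is chr12:52926420-52926719 and the KRT5 window is chr12:52520345-52520644. They are shown 5′ to 3′ with the motif matches in capitals, GGAATG (the core read by TEAD factors) in KRT8 and CAGGTG (the E-box read by ZEB1 and SNAI factors, searched as CACCTG on both strands) in KRT5.
KRT8: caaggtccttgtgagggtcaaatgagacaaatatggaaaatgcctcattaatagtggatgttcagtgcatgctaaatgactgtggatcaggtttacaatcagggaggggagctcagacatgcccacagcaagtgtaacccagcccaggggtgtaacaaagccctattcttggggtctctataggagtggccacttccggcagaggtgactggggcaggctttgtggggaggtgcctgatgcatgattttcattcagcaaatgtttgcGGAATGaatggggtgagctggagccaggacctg
KRT5: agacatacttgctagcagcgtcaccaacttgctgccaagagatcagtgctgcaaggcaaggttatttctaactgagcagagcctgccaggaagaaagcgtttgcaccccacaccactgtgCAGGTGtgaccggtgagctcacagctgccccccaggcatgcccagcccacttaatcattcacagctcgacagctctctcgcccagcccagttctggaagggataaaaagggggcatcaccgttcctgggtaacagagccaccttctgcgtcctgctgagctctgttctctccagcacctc
The match in KRT8 begins at base 268 of the window and the one in KRT5 at base 121. On either strand GGAATG stood in 14.0% and CACCTG in 20.6% of 35116 promoters of the same length. The AP-1 site TGACTCA, the GC box GGGCGG, the TATA box TATAAA and the hypoxia element core ACGTG, also read on both strands, matched neither window and stood in 4.9%, 45.0%, 11.5% and 21.4% of the promoters. These matches describe letters only.

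Zoledronate at 100 µM moved the keratins most. KRT19 rose 2.93-fold, KRT8 1.47-fold and KRT15 1.40-fold, while KRT7 fell 1.54-fold, each over 4 pairs of treated and control arrays. The 3 KRT18 probe sets, KRT5 and KRT14 did not pass. Thus 4 of 9 probe sets passed (3 higher, 1 lower), against a background of 31.4% of all 21214 probe sets in that comparison, 15.2% higher and 16.3% lower. The count over the 9 is not far above this background, and their median difference was −0.02 against 0.01 over all probe sets. These 9 hold KRT18 3 times. With 1 probe set per gene, 3 of 7 genes were higher and 1 lower, with a median of 0.10. In these bulk RNA samples more cells that express a keratin and more of its RNA per cell cannot be told apart.

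KRT19 in the controls at 24 h of lot II was 8.67, 9.07, 9.23 and 9.44, and with 100 µM zoledronate it was 10.30, 10.80, 10.85 and 10.67. Every treated array lay above every control array. The difference was 1.55 ± 0.16 (SE, log2, 4 pairs; limma adjusted p = 5.8e-08), with pairs between 1.23 and 1.74.

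KRT8 was 11.11, 11.00, 10.99 and 11.20 in those controls and 11.72, 11.53, 11.53 and 11.74 in the treated cultures, again without overlap. Its rise was 0.55 ± 0.08 (SE, 4 pairs; limma adjusted p = 1.32e-05), and the 4 pairs lay between 0.53 and 0.61, the narrowest range of the keratins that passed. Lot goes with the level of KRT8: the lot II controls at 24 h stood 0.47 ± 0.09 (SE, limma adjusted p = 0.000507) below the lot I controls at the same time, so that the treated mean of 11.63 is close to the mean of 11.55 in untreated lot I cells. The rise itself is between treated and control arrays of lot II. Its size in lot I was not tested, since 100 µM was given in lot II alone.

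KRT7 was 9.50, 9.48, 9.39 and 9.41 in the lot II controls at 24 h and 8.97, 8.74, 8.77 and 8.81 at 100 µM. All 4 treated arrays lay below all 4 controls. The difference was −0.62 ± 0.07 (SE, 4 pairs; limma adjusted p = 6.24e-07). KRT7 was the luminal keratin that went the other way from KRT19 and KRT8.

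KRT15, a type I keratin of basal layers and the genomic neighbour of KRT19, was 5.09, 5.32, 5.46 and 4.98 in the controls and 5.73, 5.55, 5.76 and 5.74 with 100 µM zoledronate. The difference was 0.48 ± 0.11 (SE, 4 pairs; limma adjusted p = 0.00102), and the groups did not overlap. Its signal was brighter than that of 24.9% of all probe sets (24.5% for KRT5), and the deposited values carry no detection call. For these 4 keratins the call against control at 100 µM was kept in all 10 alternative settings (9 for KRT15, which one setting leaves out).

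**Figure D1:**
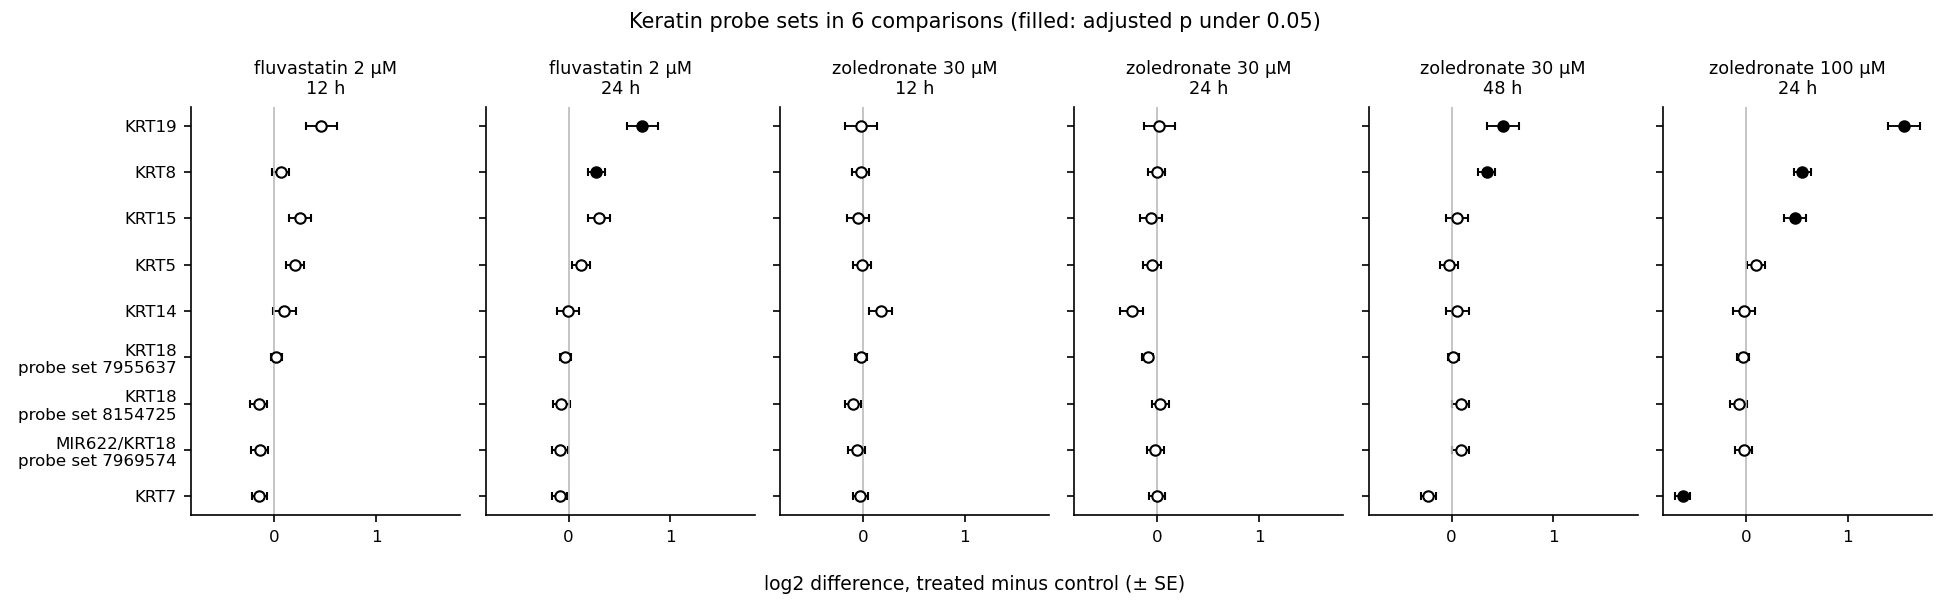
Difference between treated and control cells (log2, x axis, ± SE from the limma fit, 4 pairs each) for the 9 keratin probe sets in the 6 comparisons, with filled points where the adjusted p was under 0.05. At 100 µM zoledronate KRT19 (1.55), KRT8 (0.55) and KRT15 (0.48) lie to the right and KRT7 (−0.62) to the left, while all points of 30 µM zoledronate at 12 h and 24 h are open.

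With 30 µM zoledronate for 48 h, KRT8 and KRT19 passed, both higher, 1.27-fold and 1.42-fold. This is 2 of 9 probe sets, against 7.23% of all probe sets passing and 3.07% passing as higher. KRT8 was 10.90, 11.03, 10.66 and 10.86 in the 48 h controls and 11.36, 10.88, 11.24 and 11.36 after zoledronate. The treated replicate 2 lay among the controls. The difference was 0.35 ± 0.08 (SE; limma adjusted p = 0.0127), with pair 2 at −0.15 and the others between 0.46 and 0.58.

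KRT19 was 9.08, 9.38, 9.29 and 9.28 in the 48 h controls and 9.77, 9.44, 9.98 and 9.86 after 30 µM, with no overlap. Its difference was 0.50 ± 0.16 (SE; limma adjusted p = 0.0492), at the edge of the threshold, and here too pair 2 was the smallest, at 0.06. KRT7 was 9.37, 9.53, 9.82 and 9.73 in the controls and 9.20, 9.63, 9.53 and 9.17 in the treated cultures. Its difference of −0.23 ± 0.07 (SE; limma adjusted p = 0.0614) did not pass, with 3 of 4 pairs lower and pair 2 at 0.10. The size rested on single replicates: it was −0.34 (adjusted p = 0.0136) without replicate 2 and −0.12 (adjusted p = 0.43) without replicate 4. KRT15 stood at 5.17, 5.23, 5.28 and 5.51 in the controls and at 5.28, 5.33, 5.32 and 5.46 after treatment, a difference of 0.06 ± 0.11 (SE).

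Both 48 h calls depended on single replicates. KRT8 lost its call without replicate 1 (0.31, adjusted p = 0.131), 3 (0.27, 0.177) or 4 (0.30, 0.118), and KRT19 without replicate 1 (0.44, 0.0598), 3 (0.44, 0.258) or 4 (0.48, 0.14). Fitted on the 8 arrays alone neither passed (adjusted p = 0.376 for KRT8 and 0.201 for KRT19), and KRT19 did not without the pairing (0.148) or with arrays centred on their medians (0.48, adjusted p = 0.0557). In this comparison same-numbered arrays did not always deviate together: 2 of 4 pairs had a correlation above 0.1.

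Fluvastatin at 24 h raised KRT19 1.65-fold and KRT8 1.21-fold, 2 of 9 probe sets, against 9.86% of all probe sets passing and 6.41% passing as higher. KRT19 was 9.36, 9.28, 9.59 and 9.41 in the lot I controls and 11.02, 9.69, 10.06 and 9.78 after the statin. The groups did not overlap, but replicate 1 stood apart from the others of its group. The difference was 0.72 ± 0.16 (SE, 4 pairs; limma adjusted p = 0.00482), with 1.66 in pair 1 and 0.37 to 0.47 in the others. Without replicate 1 it was 0.41 (adjusted p = 0.11) and did not pass, and on the 8 arrays alone its adjusted p was 0.131.

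KRT8 was 11.49, 11.68, 11.53 and 11.50 in the 24 h controls of lot I and 11.95, 11.85, 11.78 and 11.68 with fluvastatin. The highest control and the lowest treated array met at the second decimal without overlap. Its difference of 0.27 ± 0.08 (SE; limma adjusted p = 0.0402) was above 0 in all 4 pairs but fragile. The call was lost without replicate 1 (0.21, adjusted p = 0.408), 3 (0.27, 0.136) or 4 (0.30, 0.123), under both other scalings (0.0553 and 0.0604), without the pairing (0.109) and on the 8 arrays alone (0.119).

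KRT15 was 5.65, 5.15, 5.14 and 5.34 in the same controls and 5.87, 5.53, 5.66 and 5.42 after fluvastatin, with all 4 pairs above 0. The difference of 0.30 ± 0.11 (SE) did not pass (limma adjusted p = 0.08), and under a new quantile normalization it did (0.32, adjusted p = 0.0285). KRT7 was 9.33, 9.60, 9.89 and 9.76 in the controls and 9.32, 9.62, 9.72 and 9.58 with the statin, a difference of −0.09 ± 0.07 (SE, interval −0.24 to 0.07). The statin at its dose thus left KRT7 within the spread, an interval that does not reach the fall of 0.62 seen in the other lot at 100 µM zoledronate.

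At 12 h no keratin passed with fluvastatin, where 0.815% of all probe sets did. KRT19 was 9.04, 9.25, 9.10 and 9.32 in the controls and 9.66, 9.56, 9.83 and 9.52 in the treated cultures, without overlap, a difference of 0.46 ± 0.16 (SE; limma adjusted p = 0.17). KRT15, at 5.05, 5.21, 5.40 and 5.14 in the controls, was 5.56, 5.57, 5.52 and 5.16 after the statin (0.25 ± 0.11, SE, adjusted p = 0.287). Without adjustment 3 of the 9 had a p under 0.05 in this comparison, KRT19, KRT15 and KRT5. KRT8 was 11.46, 11.65, 11.43 and 11.52 without the drug and 11.52, 11.59, 11.68 and 11.52 with it, and KRT7 was 9.65, 10.07, 10.08 and 10.01 without it and 9.39, 9.82, 10.09 and 9.91 with it, both with overlapping groups. The statin effect at 24 h minus that at 12 h passed for none of the 9, nor for any probe set (0% passing, 2337 with an unadjusted p under 0.05). For KRT19 that difference was 0.26 (interval −0.19 to 0.72).

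Zoledronate at 30 µM gave no keratin call at 12 h or at 24 h. In both comparisons 0% of all probe sets passed by limma, with 605 and 1041 of 21214 at an unadjusted p under 0.05. Of the 9 keratin probe sets none reached an unadjusted 0.05 at 12 h, and KRT14 did at 24 h. KRT19 after 30 µM was 8.85, 9.26, 9.19 and 9.32 at 12 h and 9.59, 9.35, 9.46 and 9.34 at 24 h, within the range of its controls apart from 8.85, and its intervals were −0.34 to 0.30 and −0.30 to 0.34. KRT8 was 11.34, 11.66, 11.47 and 11.51 at 12 h and 11.54, 11.70, 11.51 and 11.42 at 24 h. KRT7 was 9.66, 10.01, 10.09 and 9.95 at 12 h and 9.34, 9.58, 9.88 and 9.77 at 24 h, and its 8 pairs lay between −0.07 and 0.01. For KRT15 the values were 5.39, 5.16, 4.94 and 5.11 at 12 h and 5.29, 5.21, 5.37 and 5.15 at 24 h.

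**Figure D2:**
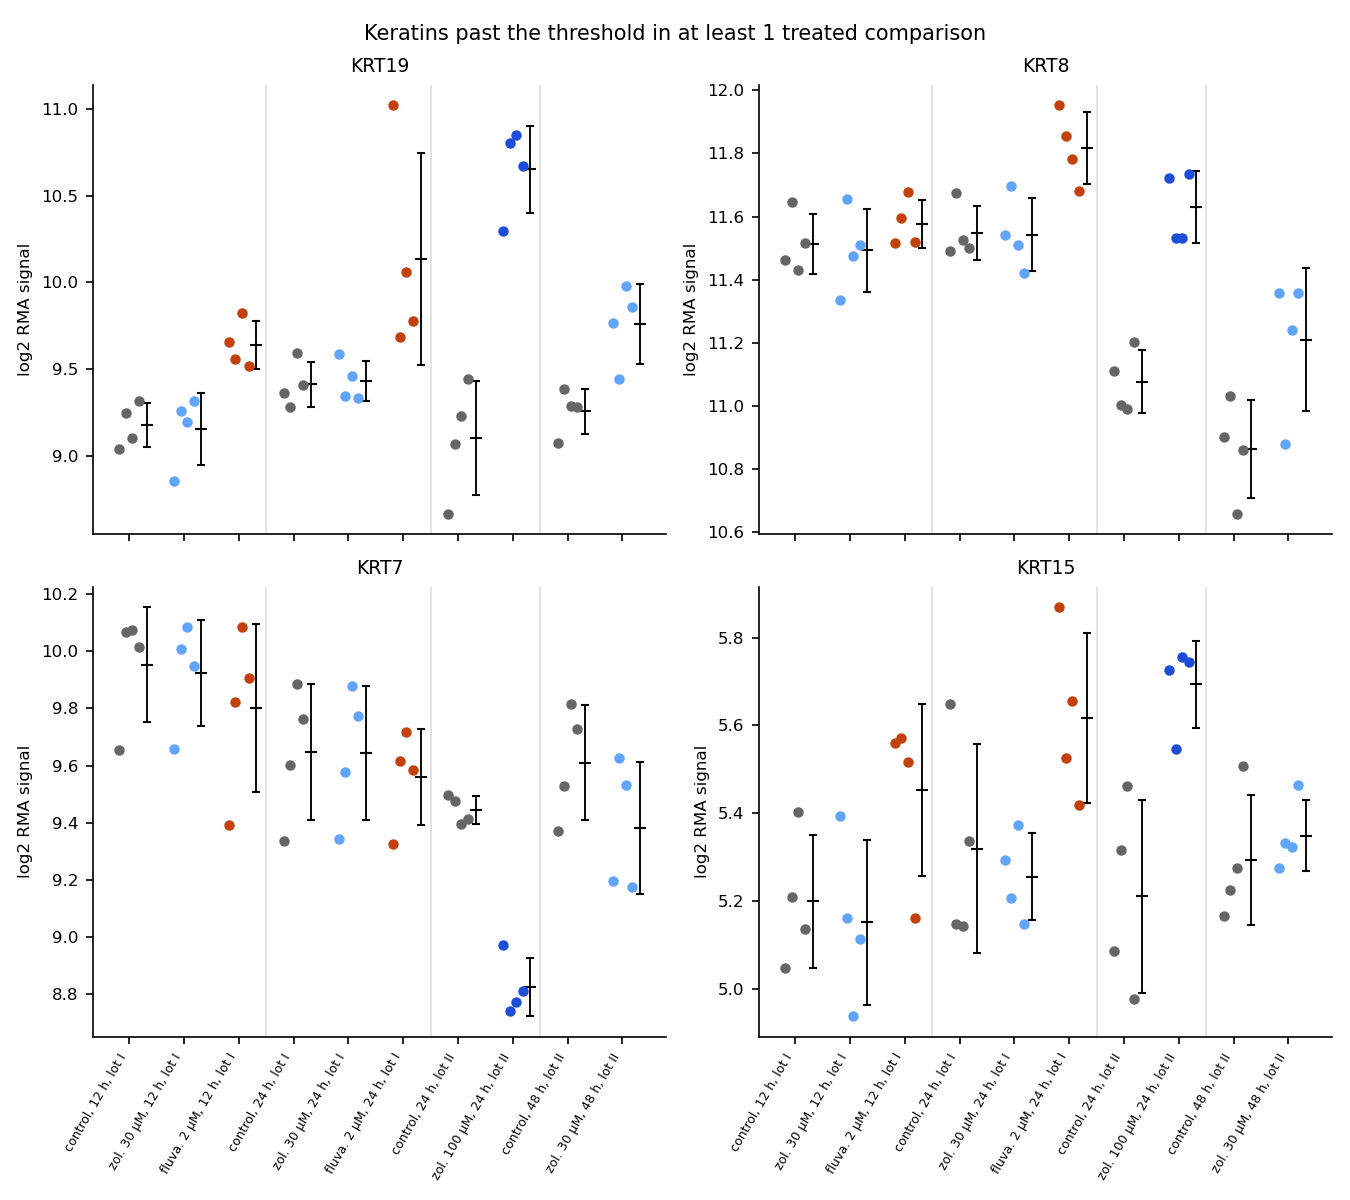
Log2 signal (y axis) of KRT19, KRT8, KRT7 and KRT15 in each of the 40 arrays (points), by group along the x axis, with the mean and SD of 4 replicates beside them; grey lines part times and lots. KRT19 at 100 µM zoledronate (10.30 to 10.85) and KRT7 at that dose (8.74 to 8.97) lie apart from their controls, and the lot II controls of KRT8 lie below those of lot I.

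Set against each other at 24 h in lot I, the agents gave different keratin levels. KRT19 was lower with 30 µM zoledronate than with 2 µM fluvastatin by −0.70 ± 0.16 (SE; limma adjusted p = 0.00811), KRT15 by −0.36 ± 0.11 (adjusted p = 0.0419) and KRT8 by −0.28 ± 0.08 (adjusted p = 0.0473). This is 3 of 9 probe sets, all lower, where 6.64% of all probe sets passed and 3.88% passed as lower. Leaving out replicate 1 ended all 3 calls, with KRT19 at −0.46 (adjusted p = 0.095), KRT15 at −0.29 (0.344) and KRT8 at −0.23 (0.431). Without replicate 3 none passed either (KRT19 −0.74, adjusted p = 0.0681; KRT15 −0.39, 0.0888; KRT8 −0.28, 0.173). KRT15 was also lost without replicate 2 (−0.38, 0.0958) or 4 (−0.39, 0.0962), and KRT8 without replicate 4 (−0.28, 0.179). At 12 h no keratin differed between the agents past the threshold, where 0.589% of all probe sets did (KRT19 −0.48 ± 0.16, SE, adjusted p = 0.16). The 2 doses differ and were not matched in strength by any value here.

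The effect of zoledronate at 24 h differed between 100 µM and 30 µM for KRT19 (by 1.53 ± 0.22, SE, limma adjusted p = 2.93e-05), KRT8 (0.56 ± 0.12, adjusted p = 0.00136), KRT15 (0.55 ± 0.15, adjusted p = 0.012) and KRT7 (−0.62 ± 0.10, adjusted p = 0.000175). These 4 of 9 compare with 19.8% of all probe sets, 8.87% higher and 10.9% lower. Each dose was set against the controls of its own lot, so dose and lot cannot be told apart. KRT15 lost this call without replicate 1 (0.40, adjusted p = 0.128) or 4 (0.41, 0.142).

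Against 30 µM at 48 h in the same lot, 100 µM at 24 h had the larger effect on KRT19 (by 1.05 ± 0.22, SE, limma adjusted p = 0.00458) and KRT7 (−0.39 ± 0.10, adjusted p = 0.0221), 2 of 9 with 7.95% of all probe sets passing, 3.71% higher and 4.24% lower. Dose and time change together here. For KRT19 the adjusted p was 0.0512 without replicate 2 (0.84) and 0.0622 without replicate 3 (1.09). KRT7 lost the call without replicate 1 (−0.40, 0.0841), 2 (−0.24, 0.184) or 3 (−0.41, 0.141) and without the pairing (0.368). For KRT8 the difference of effects was 0.21 (interval −0.04 to 0.45).

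KRT18, the type I partner of KRT8, gave no call where KRT8 passed. Its 3 probe sets passed in none of the 6 comparisons with control, and their differences lay between −0.15 and 0.09. At 100 µM zoledronate, where KRT8 rose by 0.55, the differences were −0.03 (interval −0.14 to 0.09) for probe set 7955637, −0.07 (−0.24 to 0.10) for 8154725 and −0.02 (−0.19 to 0.15) for 7969574. All 3 intervals end below the rise of KRT8, but the difference between the 2 genes was not itself tested. Probe set 7955637 was 10.38, 10.40, 10.36 and 10.22 in the lot II controls at 24 h and 10.33, 10.29, 10.26 and 10.36 at 100 µM. The 3 sets are listed with the same 12 transcript accessions. Over the 24 pairs, 8154725 and 7969574 had a correlation of 0.88, whereas 7955637 had −0.10 and −0.07 with them. KRT18 has many near-identical processed pseudogenes, so which transcripts each set reads is uncertain, and this holds for KRT8 too.

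The basal pair KRT5 and KRT14 also passed in no comparison with control. KRT5 had group means from 5.17 to 5.47, its largest difference being 0.20 ± 0.09 (SE, adjusted p = 0.296) with fluvastatin at 12 h. KRT14 was 7.42, 7.53, 7.43 and 7.43 in the lot II controls at 24 h and 7.37, 7.43, 7.32 and 7.62 at 100 µM zoledronate, a difference of −0.02 ± 0.11 (SE). Its lowest group mean was 6.62 with 30 µM at 24 h, where the difference from control was −0.25 ± 0.11 (SE, adjusted p = 0.999).

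**Figure D3:**
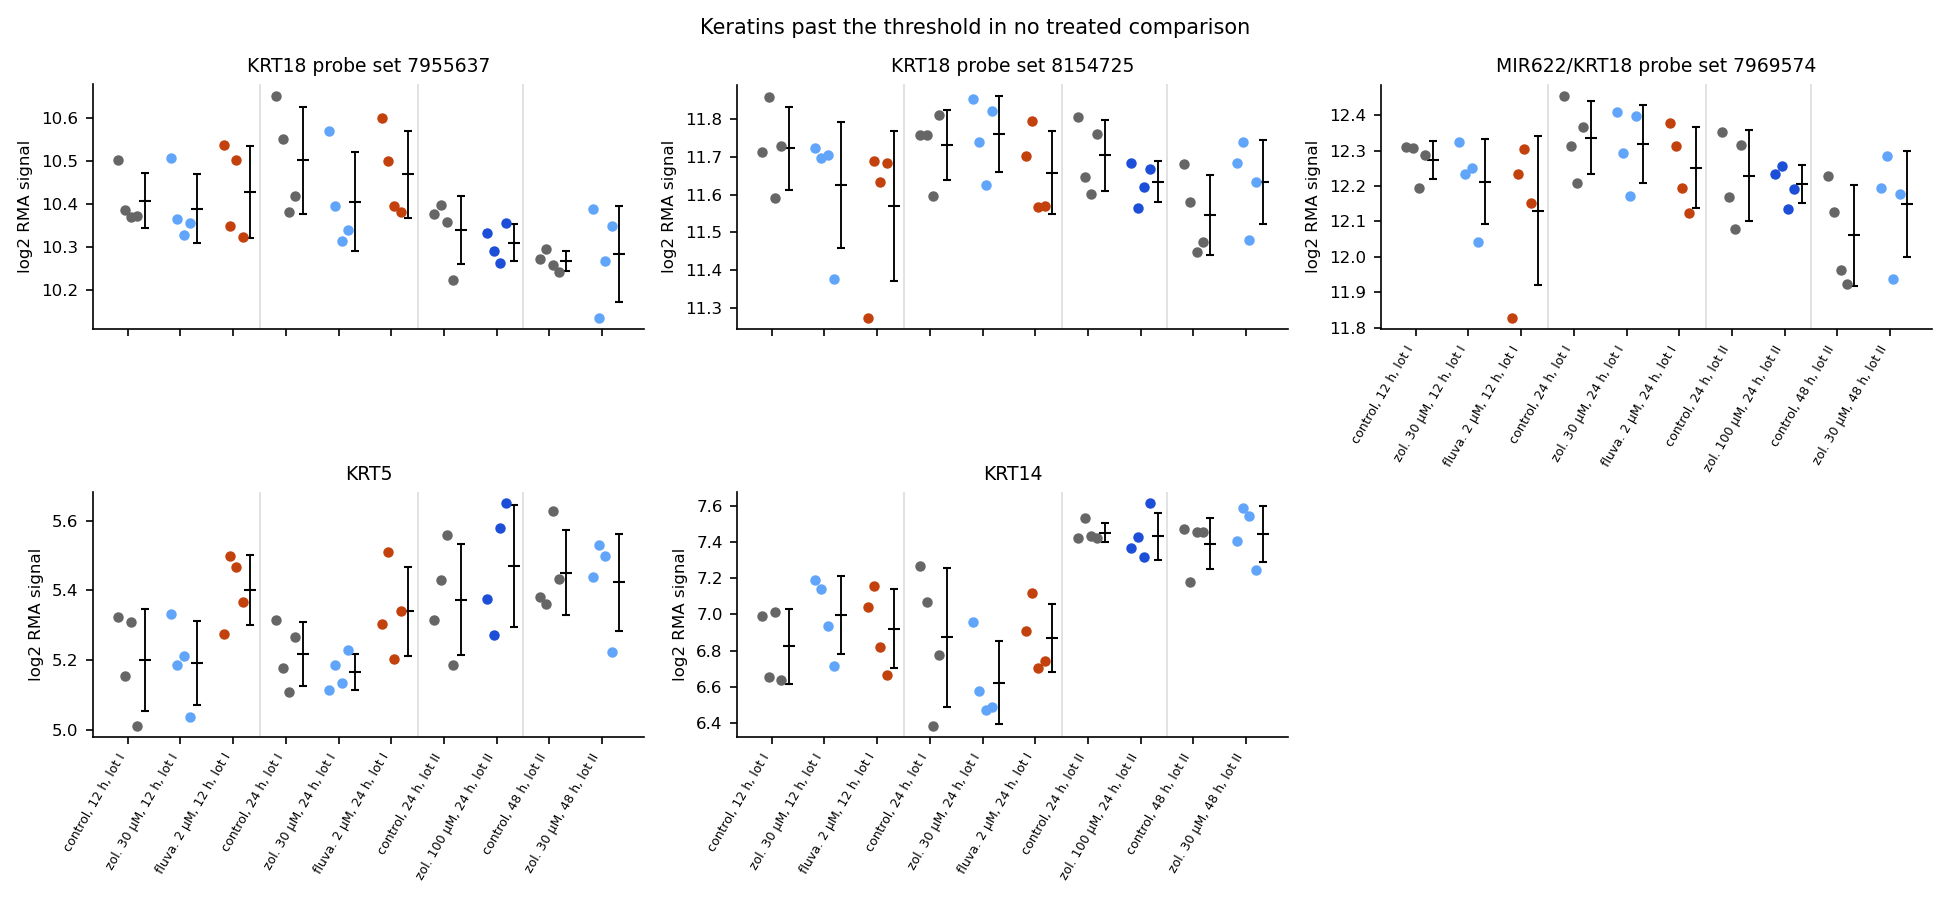
Log2 signal (y axis) of the 3 KRT18 probe sets, KRT5 and KRT14 in each of the 40 arrays (points), by group along the x axis, with the mean and SD of 4 replicates. Treated and control points overlap throughout apart from small shifts, and all lot II groups of KRT14 (means 7.39 to 7.45) lie above those of lot I.

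Untreated cells gave the background for these changes. Between lots, at 24 h, KRT8 was lower in lot II as given above and KRT14 was higher by 0.58 ± 0.14 (SE; limma adjusted p = 0.00386; 0.42, adjusted p = 0.101 without replicate 3). These were 2 of 9, against 17% of all probe sets, 7.13% higher and 9.83% lower in lot II. KRT7 did not pass (−0.20 ± 0.14, SE, adjusted p = 0.331), with −0.32 (adjusted p = 0.0438) without replicate 1 and −0.11 (adjusted p = 0.737) without replicate 3. Within lot I, controls at 24 h and 12 h differed for no keratin (0% of all probe sets passing, 1000 unadjusted), with KRT7 at −0.31 ± 0.14 (SE). Within lot II, controls at 48 h and 24 h differed for none either (1.46% of all probe sets passing), with KRT8 at −0.21 ± 0.09 (SE, adjusted p = 0.303).

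Ordered by group mean, KRT19 ran from 9.10 ± 0.33 (SD, n = 4) in the lot II controls at 24 h to 10.65 ± 0.25 with 100 µM. In between, 30 µM zoledronate had 9.16 at 12 h, 9.43 at 24 h and 9.76 at 48 h. Fluvastatin had 9.64 at 12 h and 10.14 at 24 h, and the other controls 9.18 (12 h), 9.26 (48 h) and 9.41 (lot I, 24 h). Of the 9 steps between neighbours in that order, 2 exceeded the larger SD of the pair. They were the steps up to the lot I controls at 24 h and up to fluvastatin at 12 h. The last step, from fluvastatin at 24 h to 100 µM, did not (0.52 against an SD of 0.61). KRT7 ran from 8.82 ± 0.10 at 100 µM to 9.95 ± 0.20 in the 12 h controls, and only the step above 100 µM, to 9.38 ± 0.23 with 30 µM at 48 h, exceeded the larger SD. KRT8 ran from 10.86 ± 0.16 in the 48 h controls to 11.82 ± 0.11 with fluvastatin at 24 h, with 3 such steps, and its 2 lowest means were lot II controls. KRT15 ran from 5.15 ± 0.19 to 5.69 ± 0.10, with no such step.

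Across the 24 pairs, the KRT19 and KRT8 differences had a Pearson correlation of 0.86, and KRT7 had −0.73 with KRT19 and −0.75 with KRT8. The neighbours KRT15 and KRT19 had 0.48. These are descriptions over 6 comparisons, in which the pairs of both agents in lot I share control arrays. The pair of fluvastatin at 24 h that stood apart for KRT19 (1.66) had KRT8 at 0.46 and KRT7 at −0.01. Over the same pairs the genes most like KRT19 were CAPN1 (0.98, a calpain protease), TMC7 (0.96) and PLEK2 (0.96), with 3.03% of probe sets of 1 symbol above a correlation of 0.8. For KRT8 they were INPPL1 (0.94, a lipid phosphatase), MYL6 (0.93, a myosin light chain) and CSTB (0.92, a cathepsin inhibitor). For KRT7 they were SRPRA (0.92), SLC3A2 (0.91, a subunit of amino acid transporters) and TBL1X (0.91), and for KRT15 MIR99B (0.81), LOC440300 (0.77) and HS3ST4 (0.77).

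**Figure D4:**
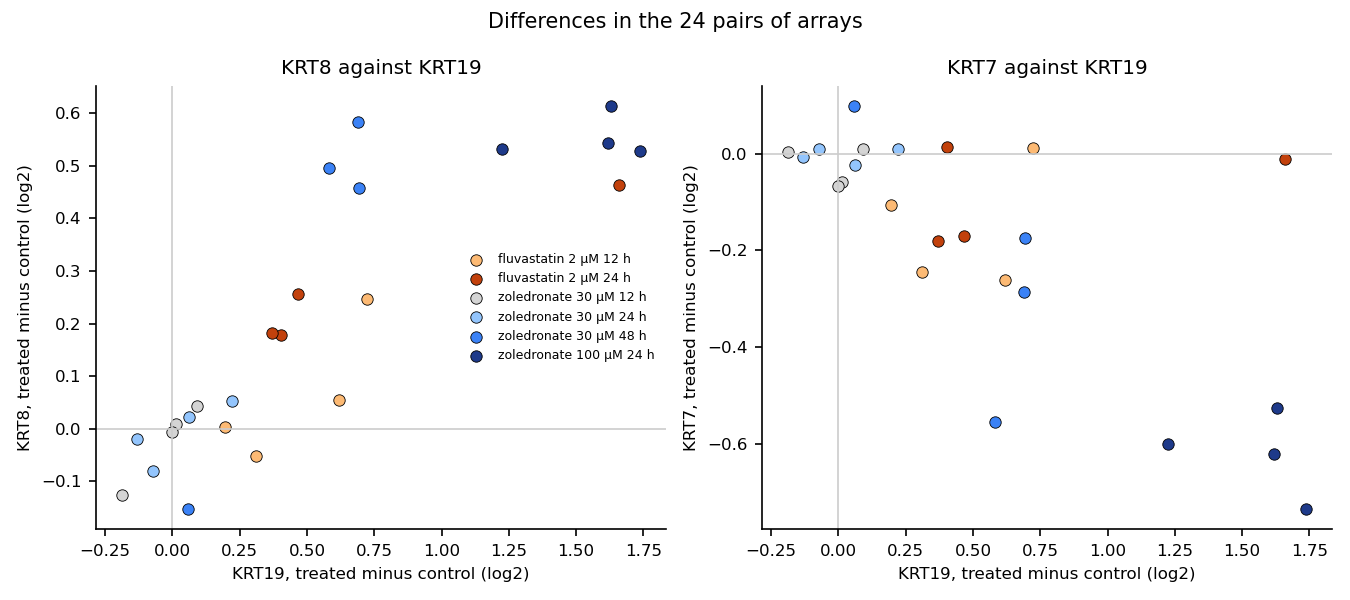
Difference of KRT8 (left) and of KRT7 (right) between treated and control array (log2, y axes) against that of KRT19 (x axes) in the 24 pairs, coloured by comparison. The 4 pairs of 100 µM zoledronate have KRT7 between −0.73 and −0.53, with 1 pair of 30 µM at 48 h (−0.55) among them, and 1 pair of fluvastatin at 24 h has KRT19 at 1.66 with KRT7 at −0.01.

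Of the other keratins few passed, but nearly all of them were dim. Control medians of the 24 type I keratins ran from 3.22 (KRT28) to 6.33 (KRT16), where array medians were 6.19 to 6.33. Those of the 17 type II keratins ran from 4.50 (KRT1) to 6.37 (KRT83), apart from KRT80 at 7.61. Small changes of dim probe sets are compressed, so a missing call does not show that a keratin was unchanged. At 100 µM zoledronate, where 31.4% of all probe sets passed, none of 24 other type I keratins did. Of 17 other type II keratins KRT80 alone passed, falling to 6.72 from 7.62 (−0.90 ± 0.08, SE, limma adjusted p = 1.83e-08). KRT80, a type II keratin and the genomic neighbour of KRT7, also fell with fluvastatin at 24 h (−0.42 ± 0.08, adjusted p = 0.00279), where 9.86% of all probe sets passed. The medians of the lists at 100 µM were 0.01 and 0.08, against 0.01 over all probe sets. Of 13 other intermediate filament proteins, LMNA (lamin A/C, 0.97) and NES (nestin, 0.63) rose and LMNB1 (−0.41) and LMNB2 (−0.39) fell at 100 µM. This is about the share of all probe sets that passed. VIM (vimentin, the mesenchymal filament protein) did not pass at 0.14 ± 0.07 (SE).

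Of 25 genes of desmosomes and plakins, which anchor keratin filaments to cell junctions, 10 rose and 5 fell at 100 µM, with a median of 0.18, where 31.4% of all probe sets passed (15.2% higher, 16.3% lower). The largest rises were DSC2 (desmocollin 2, 0.90 ± 0.14, SE) and JUP (plakoglobin, 0.85 ± 0.10). The largest falls were PKP2 (plakophilin 2, −0.69 ± 0.08) and PKP4 (−0.66 ± 0.08). With fluvastatin at 24 h, where 9.86% of all probe sets passed, 3 rose and 2 fell, the largest being DSP (desmoplakin, 0.46), PERP (0.39), PKP2 (−0.37) and PKP4 (−0.36). With 30 µM zoledronate at 48 h, where 7.23% passed, 3 rose and 1 fell, PERP at 0.34 and DSP at 0.31 leading and PKP4 at −0.29.

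Of 16 epithelial transcription factors and splicing regulators, 4 rose and 1 fell at 100 µM, led by ELF3 (2.40 ± 0.15, SE), an epithelial ETS factor, and SPDEF (2.23 ± 0.22), an ETS factor of secretory luminal cells. KLF5 fell (−0.28 ± 0.09). These 5 of 16 are about the share of all probe sets that passed in this comparison (31.4%). With fluvastatin at 24 h 3 rose, SPDEF by 1.66 and ELF3 by 1.01 at the head (9.86% of all probe sets passing), and at 48 h of 30 µM zoledronate ELF3 (0.84) and TFAP2C (0.36) rose (7.23% passing).

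At 100 µM, where 31.4% of all probe sets passed, 5 of 12 luminal markers passed as higher and none as lower, with a median of 0.13. The largest rises were CLDN7 (1.35) and CLDN4 (0.77), both tight junction claudins. The other 7 did not pass. Of these, only EPCAM (mean 8.22 in the controls, 7.87 treated) and GATA3 (6.28 and 6.23) had lower treated means. The mean level of the luminal list per array was 6.12 to 6.18 in the controls and 6.37 to 6.49 in the treated cultures, without overlap. Of 12 basal and myoepithelial markers 2 rose and 3 fell (median −0.07): ITGB4, an integrin chain that ties keratins to the basement membrane, rose by 2.58 and ITGA6 by 0.48, while SNAI2, a repressor of epithelial genes, fell (−1.49) and CAV1 fell (−0.51). Of 10 mesenchymal markers 4 rose and 1 fell, with FN1 at 1.18, CDH11 at 0.89 and AXL at −0.73. The mesenchymal list means did not overlap either (8.86 to 8.90 in the controls, 8.99 to 9.10 treated), whereas the basal ones did (7.13 to 7.24 and 7.15 to 7.26). With fluvastatin at 24 h, where 9.86% of all probe sets passed, 2 luminal markers rose (CLDN7 0.56, CLDN4 0.49) and 2 basal markers rose and 2 fell. At 48 h of 30 µM zoledronate, where 7.23% passed, no luminal marker passed and 1 basal marker rose and 1 fell. With fluvastatin at 12 h the luminal list means were 6.10 to 6.25 in the controls and 6.27 to 6.43 treated. At 24 h of fluvastatin they were 6.18 to 6.34 and 6.36 to 6.44. With 30 µM zoledronate at 48 h they were 6.19 to 6.30 and 6.31 to 6.33. None of these luminal ranges overlapped, and the mesenchymal ones at 48 h did not either (8.88 to 8.99 and 9.01 to 9.10). Such separation was not particular to the luminal list, as the markers of other cells below also had it. In the controls VIM lay between 12.11 and 12.38 and EPCAM between 7.36 and 9.09, while CDH1 lay between 4.41 and 5.18 and ESR1 between 4.45 and 5.28, below the array medians of 6.19 to 6.33.

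Some markers of other cells also passed at 100 µM, in both lists at about the share of all probe sets that did (31.4%). Of 6 blood cell markers CD68 (0.56) and CD14 (0.42) rose and none fell. The list's mean level per array was 5.74 to 5.81 in the controls and 5.87 to 6.03 in the treated cultures, without overlap. PTPRC, which defines blood cells, stayed between 3.25 and 3.73 in all controls. Of 10 fibroblast and endothelial markers PECAM1 (1.30) and PDGFRB (0.48) rose and KDR fell (−0.51). Their list means were 5.35 to 5.44 and 5.46 to 5.59, also without overlap. The blood cell list lay above its controls with fluvastatin at 12 h too (5.58 to 5.75 and 5.76 to 5.89). The fibroblast and endothelial list lay below its controls with 30 µM zoledronate at 24 h (5.43 to 5.47 and 5.28 to 5.42). Their part in the keratin results was not tested.

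**Figure D5:**
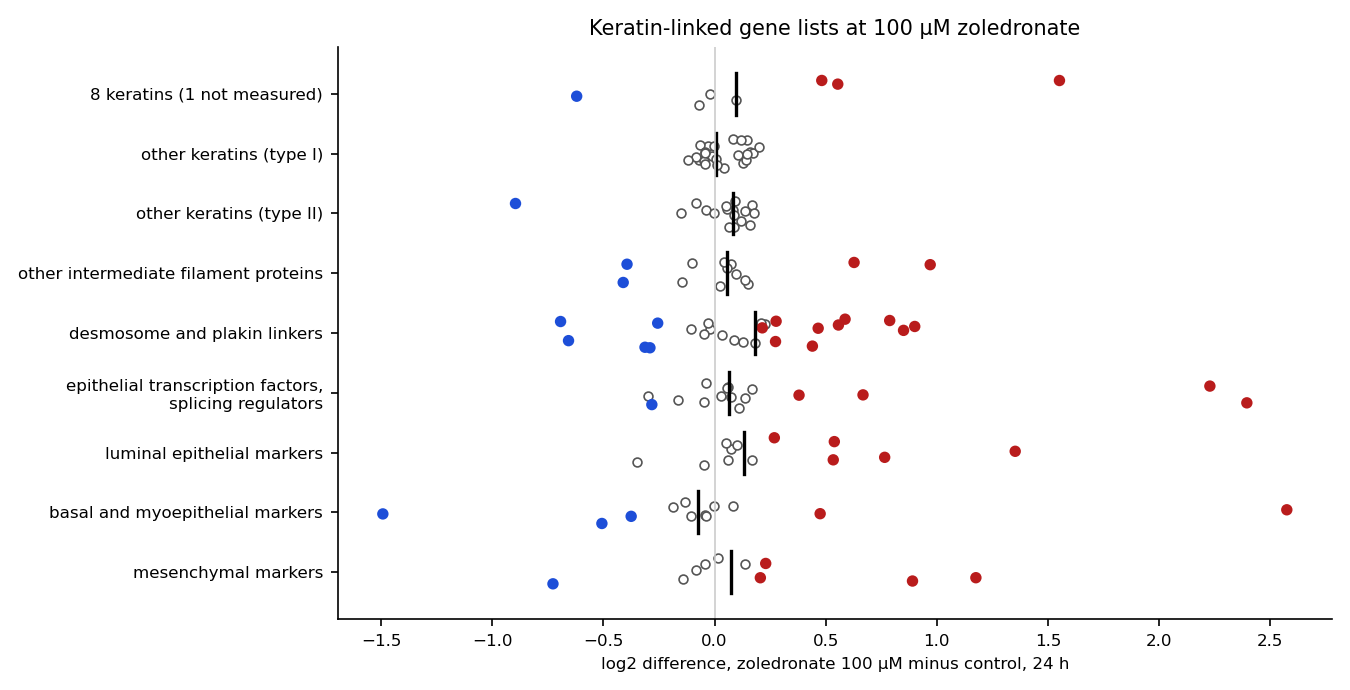
Difference of each gene (points, log2, x axis) between 100 µM zoledronate and control at 24 h, 4 pairs each. The rows (y axis) are the keratins studied and 8 lists of related genes. Each gene is shown by its brightest probe set with 1 symbol, which for KRT18 is 8154725. Red and blue points passed as higher or lower, open points did not, and bars are medians; KRT80 (−0.90) is the only blue point among the other keratins, and ITGB4 (2.58), ELF3 (2.40) and SPDEF (2.23) lie farthest to the right.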

How the data were processed

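Total RNA of 40 cultures was amplified and biotin-labelled, per the labels' protocols. The authors' deposited values are log2 signals per probe set, made with RMA in Affymetrix Power Tools 1.10.2 per the submitters' processing notes, which also name limma. RMA subtracts background, equalises distributions and summarises probes, so small changes of dim probe sets are compressed. No source used here gives a genome build, or says if both lots were normalized at once. Values ran from 1.2 to 14.52 and array medians from 6.19 to 6.33. The number of arrays limits the precision.

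The fit (limma 3.58.1, R 4.3.3) covered the 21214 probe sets with a symbol (19460 with 1, 1754 with several), with 16 blocks of lot, time and replicate and 18 residual degrees of freedom. The design text states that treated and control cultures were paired by day. Correlations of deviations of same-numbered arrays were at least 0.18 in lot I, −0.28 to 0.53 at 48 h and −0.08 to 0.25 at 100 µM, so in lot II the pairing rests on that text. Controls were compared without the block. P-values are two-sided and adjusted by Benjamini-Hochberg over all 21214, with a threshold of 0.05, and intervals are 95% intervals. For list genes only probe sets with 1 symbol were used, and the brightest of several stands for the gene. Up to 2 genes per direction were named from each list, and 3 most similar genes per keratin that passed. The members and lists were chosen with earlier results of these data known. The fit was tested on simulated data.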

Additional observations from a re-analysis of the deposited data

Results flagged for a closer look

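Of 90 group levels (9 keratin probe sets in 10 groups), 8 held an array far from the other 3, where chance gives about 1 in 20. KRT7 was 9.65 in replicate 1 of the 12 h controls, against 10.01 to 10.08 in the others. KRT14 was 7.18 in replicate 2 of the 48 h controls (others 7.46 to 7.47) and 7.53 in replicate 2 of the lot II controls at 24 h (others 7.42 to 7.43). KRT15 was 5.16 in replicate 4 of fluvastatin at 12 h (others 5.52 to 5.57) and 5.55 in replicate 2 of 100 µM zoledronate (others 5.73 to 5.76). KRT18 probe set 7955637 was 10.50 in replicate 1 of the 12 h controls (others 10.37 to 10.39). KRT18 probe set 8154725 was 11.38 in replicate 4 of 30 µM zoledronate at 12 h (others 11.70 to 11.72) and 11.27 in replicate 1 of fluvastatin at 12 h (others 11.63 to 11.69).

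Effects differed between agents, or between doses together with lot or time, in 9 tests. At 24 h the difference of 30 µM zoledronate from fluvastatin was −0.28 for KRT8, −0.36 for KRT15 and −0.70 for KRT19 (6.64% of all probe sets passing). All of these calls were lost without replicate 1 or 3. The effect of 100 µM at 24 h minus that of 30 µM at 24 h was −0.62 for KRT7, 0.56 for KRT8, 0.55 for KRT15 and 1.53 for KRT19 (19.8% passing). Here dose and lot cannot be told apart. The effect of 100 µM at 24 h minus that of 30 µM at 48 h was −0.39 for KRT7 and 1.05 for KRT19 (7.95% passing), with dose and time changing together.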

How the results depend on the processing

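The 4 keratin calls at 100 µM zoledronate kept direction and call in every alternative that tested them, and no called value changed sign. Of 9 probe sets, 2 passed with fluvastatin at 24 h, but 1 without the replicate block, 0 on the arrays compared alone, 1 with arrays centred on their medians and 0 to 2 with a replicate number left out. At 48 h of 30 µM zoledronate 2 passed, but 1 without the block, 0 on the arrays compared alone and 0 to 3 with a replicate left out. With centred arrays 2 passed there, KRT7 (−0.26, adjusted p = 0.0294) in place of KRT19 (0.48, adjusted p = 0.0557), and KRT7 also passed with dim probe sets left out (adjusted p = 0.0338) but was −0.12 (adjusted p = 0.43) without replicate 4. Between the agents at 24 h 3 passed, but 1 without the block, 1 with centring and 0 to 2 with a replicate left out. For 100 µM at 24 h against 30 µM at 48 h 2 passed, but 1 without the block and 0 to 2 with a replicate left out. For the controls of lot II against lot I 2 passed, and 1 to 3 with a replicate left out. For the doses at 24 h 4 passed, and 3 to 4 with a replicate left out. The other comparisons gave 0 keratin calls in every setting run. Apart from KRT19 at 48 h and KRT8 with fluvastatin, and the contrasts above, the block changed no keratin call. The cause of these changes was not tested.

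Counts over all probe sets moved more. Without the block 173 for fluvastatin at 12 h became 24, 2092 at 24 h 714, 1533 at 48 h 357, 4203 for the doses at 24 h 2282, 1686 for 100 µM against 48 h 554, 1408 between the agents at 24 h 364 and 125 at 12 h 11. On the arrays compared alone the first 3 became 12, 2 and 0, and with dim probe sets left out 173 became 281 and 125 became 237. With a replicate number left out, the counts ran from 0 (without 3) to 40 (without 2) for fluvastatin at 12 h, 301 (1) to 2650 (2) at 24 h, 497 (3) to 1419 (2) at 48 h, 2448 (3) to 3626 (2) for the doses, 324 (3) to 1789 (2) for 100 µM against 48 h, 155 (1) to 1713 (2) between the agents at 24 h and 0 (3 and 4) to 45 (2) at 12 h. They ran from 1558 (3) to 3153 (4) for the lots, where 3597 passed, from 63 (3) to 813 (1) for controls at 48 h against 24 h, where 310 passed, and from 5155 (3) to 5931 (2) for 100 µM at 24 h, where 6671 passed. From 0 they reached 1 (2) for the statin effect at 24 h minus 12 h and 4 (4) for controls at 24 h against 12 h. Shares of higher calls moved with scaling: 36.4% to 20.6% (fluvastatin 12 h), 65% to 53.3% (24 h), 42.5% to 30.3% (48 h) and 65.6% to 76.5% (agents at 12 h) with centring, and 65.6% to 54.7%, 44.8% to 56.1% (doses at 24 h), 25.8% to 47.8% (controls 48 h) and 42% to 31% (lots) with quantile normalization. All medians over probe sets stayed within 0.05 of 0. The dim probe sets left out were the lowest 1 in 3 by mean level, KRT5 and KRT15 among them.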
